A study of Mus musculus with 2 samples.

Results

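Smooth muscle cells and pericytes are the mural cells of blood vessels, and 10 genes that mark them were followed through total RNA-seq of the mouse heart. The genes were taken by name from a list, which was drawn up with earlier results of these data known, and each matched a single gene of the 55536 mouse genes in the deposited tables. They comprise 6 genes known best from pericytes (Rgs5, Cspg4, Pdgfrb, Abcc9, Mcam and Higd1b) and 4 of the smooth muscle contractile apparatus and its cytoskeleton (Tagln, Cnn1, Smtn and Lmod1). The hearts came from 2 female mice of B6CASTF1/J, the first-generation hybrid of the inbred strains C57BL/6J and CAST/EiJ, at an age of 36 days, and the labels name no treatment or allele beyond that cross. From each heart 300 ng of RNA went into a library, with added ERCC spike-ins, synthetic RNAs of known amount. The animals are replicates 1 and 2 of 1 group, so levels and their spread can be given and no contrast between conditions exists.

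Vascular smooth muscle wraps arteries and sets their width by contracting, with myosin acting on actin filaments that calponin, smoothelin and transgelin bind. Pericytes sit on capillaries, share a basement membrane with the endothelium, and depend on signals of the growth factor PDGF-B from endothelial cells through the receptor PDGFR-beta. In the heart, mural cells are greatly outweighed in RNA by cardiomyocytes, which also use several of the genes followed here.

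The libraries held 39053339 expected counts in replicate 1 and 38332179 in replicate 2, of which 40953 and 38548 lay on the 10 genes. Counting intervals below are exact 95% intervals and hold for counting error alone. No molecular identifiers are named for the reads, which can then be copies of a molecule, and the intervals can be too narrow. Values are those of the authors' first quantification, from alignments to transcripts, unless their second one is named. All 10 genes were detected, with at least 1 TPM (a relative transcript abundance, scaled by length) in each library, as were 12024 of all genes. Their TPM summed to 326 in replicate 1 and 310.5 in replicate 2. Their median level was 15.2 TPM, beside 8.43 TPM over all detected genes, and the genes spanned 1.25 to 107 TPM. In whole tissue, fewer cells of a type and less RNA per cell cannot be told apart.

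Rgs5 was the highest of the pericyte genes. It encodes a small regulator of G protein signalling that shortens the response of receptors for vasoconstrictors (ENSMUSG00000026678.10, chromosome 1, 169655501 to 169695813, plus strand of mm10). Its level was 111 TPM in replicate 1 and 103 TPM in replicate 2, from 13615 and 12175 counts. The mean of 107 ± 5.28 TPM (SD, n = 2, as for every SD below) lay above 95.1% of the detected genes. The transcript Rgs5-201 took 96.7 ± 0.830% of it, and the shorter Rgs5-202 took the rest.

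Abcc9, the sulfonylurea receptor SUR2 of ATP-sensitive potassium channels, followed at 84.1 TPM in replicate 1 and 85.6 TPM in replicate 2 (mean 84.9 ± 1.07; ENSMUSG00000030249.15, chromosome 6, 142587862 to 142702315, minus strand). Cardiomyocytes are known to use this gene as well as mural cells, through different coding ends. The form known as SUR2A, the cardiac and skeletal muscle form, ends in an upstream last coding exon, and SUR2B, the smooth muscle form, skips it and ends in a downstream exon. The ends are shown because they are the part that tells the forms apart in RNA. Both follow 4503 shared coding bases, and both hold 45 codons and a stop codon in 138 bases. They are given on the minus strand of GRCm38 from GENCODE M21 transcripts, at chr6:142594005-142594142 for the upstream end and chr6:142590366-142590503 for the downstream end, with capitals at the 68 bases that differ.
Abcc9-202, upstream end: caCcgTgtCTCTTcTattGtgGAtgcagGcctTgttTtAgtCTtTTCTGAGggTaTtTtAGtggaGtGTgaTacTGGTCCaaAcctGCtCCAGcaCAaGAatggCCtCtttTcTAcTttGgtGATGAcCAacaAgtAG
Abcc9-203, downstream end: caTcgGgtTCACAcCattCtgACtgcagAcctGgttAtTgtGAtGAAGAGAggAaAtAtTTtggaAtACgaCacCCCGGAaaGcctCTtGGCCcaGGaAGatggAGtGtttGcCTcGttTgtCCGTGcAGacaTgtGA
The other 70 bases were the same in both ends. Set without gaps against the last 138 coding bases of Abcc8-201, the relative SUR1, the downstream end had 97 bases in common (70.3%) and the upstream end 71 (51.4%).

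The upstream end was the more abundant end of Abcc9 in each library. The 4 transcripts that carry it held 46.2 TPM in replicate 1 and 50.6 TPM in replicate 2, a share of 57.0 ± 2.99% of the gene. Abcc9-203, the only annotated transcript with the downstream end, held 34.2 TPM in replicate 1 and 32.2 TPM in replicate 2, a share of 39.2 ± 2.15%. The truncated Abcc9-205 held the remaining 3.82 ± 0.839%. Of the TPM of the 2 ends together, the upstream end had 57.5% in replicate 1 and 61.1% in replicate 2 in the first quantification. It had 64.3% and 68.1% in the second quantification, made by the authors from reads and a transcript index. The order of the ends was therefore the same in both libraries and both quantifications, while the share moved by more than the SD between the animals. Abcc9-203 was the highest single transcript of the first quantification, which gave 1 of the 4 upstream transcripts 0 counts in each library. In the second quantification Abcc9-203 led in replicate 1, at 31.5 TPM against 30.04 TPM for Abcc9-202, and Abcc9-202 led in replicate 2, at 29.9 TPM against 28.9 TPM for Abcc9-203. The split within the upstream end was loose: Abcc9-201 had 3860 counts in replicate 1 and 5912 in replicate 2, with posterior SDs of 408 and 382 counts from the authors' estimate.

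Genes of the channel that Abcc9 completes were present at lower levels. Kcnj8, which encodes the pore subunit Kir6.1 of vascular channels and lies 16247 bases from Abcc9 on the same strand, had 10.1 TPM in replicate 1 and 10.2 TPM in replicate 2. Kcnj11, which encodes the pore subunit Kir6.2 of cardiac channels, had 38.6 and 35.9 TPM in the same order. Kcnj8 and Kcnj11 were singled out after their values were seen. Abcc8, the other sulfonylurea receptor, had 21.96 TPM in replicate 1 and 19.4 TPM in replicate 2. Abcc9 thus made 80.4 ± 1.60% of the receptor TPM.

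Mcam is the adhesion protein CD146 of endothelial and mural cells. It had 17.7 TPM in replicate 1 and 13.96 TPM in replicate 2 (mean 15.8 ± 2.63; ENSMUSG00000032135.15, chromosome 9, 44134469 to 44142727, plus strand). Alternative splicing gives the protein a long or a short cytoplasmic tail, and the sequences show how. Mcam-201 holds an exon of 118 bases at chr9:44141275-44141392 that Mcam-202 leaves out. The exon shifts the reading frame, so the last coding exon, which begins at chr9:44141784 in both, ends at different stop codons, shown in capitals (plus strand of GRCm38, GENCODE M21).
Mcam-201, exon left out of Mcam-202: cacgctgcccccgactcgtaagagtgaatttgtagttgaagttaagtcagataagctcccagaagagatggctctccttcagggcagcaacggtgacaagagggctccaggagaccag
Mcam-201, last coding exon, long tail: ggagagaaatacatcgatctgaggcatTAG
Mcam-202, last coding exon, short tail: ggagagaaatacatcgatcTGA
The long tail had 10.7 TPM in replicate 1 and 7.87 TPM in replicate 2, and the short tail 2.92 and 3.71 TPM in the same order. Of the 2 tails together, the long one had 78.5% in replicate 1 and 67.96% in replicate 2. The second quantification gave it 87.9% and 80.2%. The long tail was thus the higher in each library and quantification, with a wide spread. The posterior SD of the short tail was 60.9 counts on 245 in replicate 1 and 57.2 counts on 302 in replicate 2. The other 4 transcripts of the gene are left out of these shares. They held 20.0 ± 4.26% of its TPM in the first quantification and 32.9 ± 12.8% in the second.

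Pdgfrb, the receptor through which PDGF-B keeps pericytes on capillaries, had 14.4 TPM in replicate 1 and 14.75 TPM in replicate 2 (mean 14.6 ± 0.276; ENSMUSG00000024620.11). Its TPM range lay within that of Mcam, so the order of the 2 genes did not hold against the spread between the animals in the first quantification. In the second, Pdgfrb lay under Mcam in each library, at 16.1 against 24.8 TPM in replicate 1 and 16.4 against 16.9 TPM in replicate 2. In the first quantification Pdgfrb took 58.8 ± 1.74% of the TPM of the PDGF receptors. The rest was Pdgfra, the receptor of fibroblasts, at 9.58 TPM in replicate 1 and 10.9 TPM in replicate 2. The ligand Pdgfb had 12.6 and 11.3 TPM in that order, and the lowest of the 6 genes of this system, the ligand Pdgfc, 1.41 and 1.06 TPM. Pdgfb was singled out after its values were seen.

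Cspg4, the proteoglycan NG2 on the surface of pericytes, had 6.20 TPM in replicate 1 and 6.01 TPM in replicate 2 (mean 6.11 ± 0.134; ENSMUSG00000032911.6, chromosome 9, 56865033 to 56899870, plus strand). A share of 38.6 ± 6.41% of this TPM was on 3 transcripts with a retained intron and no coding sequence. The second quantification put 7.02% there in replicate 1 and 17.0% in replicate 2. The coding transcript Cspg4-201 therefore stood at 4.09 TPM in replicate 1 and 3.42 TPM in replicate 2 in the first quantification, and at 5.19 and 4.54 TPM in the second. Higd1b, a small protein of the hypoxia-induced HIG1 family, had 5.99 TPM in replicate 1 and 4.57 TPM in replicate 2, from only 105 and 82 counts (mean 5.28 ± 1.00; ENSMUSG00000020928.14, chromosome 11, 102835849 to 102838040, plus strand). Its 3 transcripts share 294 coding bases, so their split does not touch the protein. The counting intervals of Cspg4 and Higd1b overlapped, and the second quantification put Higd1b above Cspg4, at 7.16 ± 1.13 TPM against 5.53 ± 0.0851 TPM.

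**Figure D1:**
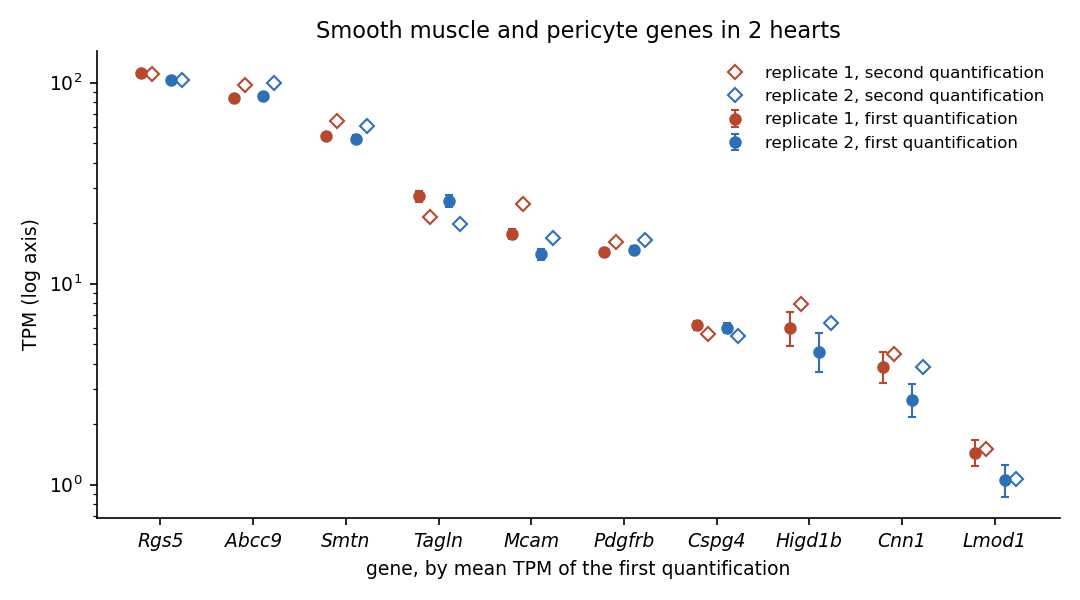
TPM of the 10 genes on a log axis in replicates 1 and 2, with exact 95% counting intervals for the first quantification (filled) and the second quantification beside it (open). Rgs5 and Abcc9 stood highest and Lmod1 lowest in each library and quantification, and in the first quantification the ranges of the libraries overlapped between neighbours only for Mcam and Pdgfrb.

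Smtn led the contractile genes. It encodes smoothelin, a cytoskeletal protein of contractile smooth muscle that binds actin filaments (ENSMUSG00000020439.17, chromosome 11, 3517523 to 3540612, minus strand). Its level was 54.3 TPM in replicate 1 and 52.6 TPM in replicate 2 (mean 53.5 ± 1.16). The gene is known for a long form, smoothelin-B of vascular muscle, and a short form, smoothelin-A of visceral muscle, which starts from within the gene. Smtn-201, the transcript of the short kind, has a first exon of 510 bases that lies inside an intron of 2959 bases of the long transcript Smtn-202, 11355 bases downstream of its first base. The first coding bases of both are shown because they separate the forms, cut at 60 bases or at the end of the first coding exon, with the start codon in capitals (minus strand of GRCm38, GENCODE M21). They lie at chr11:3527767-3527826 for Smtn-201 and chr11:3537323-3537373 for Smtn-202.
Smtn-201, internal start: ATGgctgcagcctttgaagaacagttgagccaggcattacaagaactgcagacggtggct
Smtn-202, upstream start: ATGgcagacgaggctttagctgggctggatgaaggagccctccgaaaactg
Smtn-201, with 1308 coding bases against 2763 in Smtn-202, was the leading transcript in each library. It held 32.6 TPM in replicate 1 and 30.5 TPM in replicate 2, a share of 58.9 ± 1.47% of the gene. The 6 transcripts with the upstream start codon held 15.6 TPM in replicate 1 and 14.3 TPM in replicate 2, a share of 27.9 ± 1.15%, and 3 transcripts without an annotated coding sequence held the rest. The second quantification gave shares of 54.3 ± 1.35% and 28.2 ± 1.04% to the internal and the upstream start. In the first quantification the internal start had 2.09 times the TPM of the upstream start in replicate 1 and 2.14 times in replicate 2, a like margin in each animal. In counts, which are not scaled by length, the internal start had 55.3 ± 0.396% and the upstream start 40.8 ± 0.415% of the gene. The margin was smallest in counts of the second quantification, at 50.5 ± 0.744% against 46.1 ± 0.224%.

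**Figure D2:**
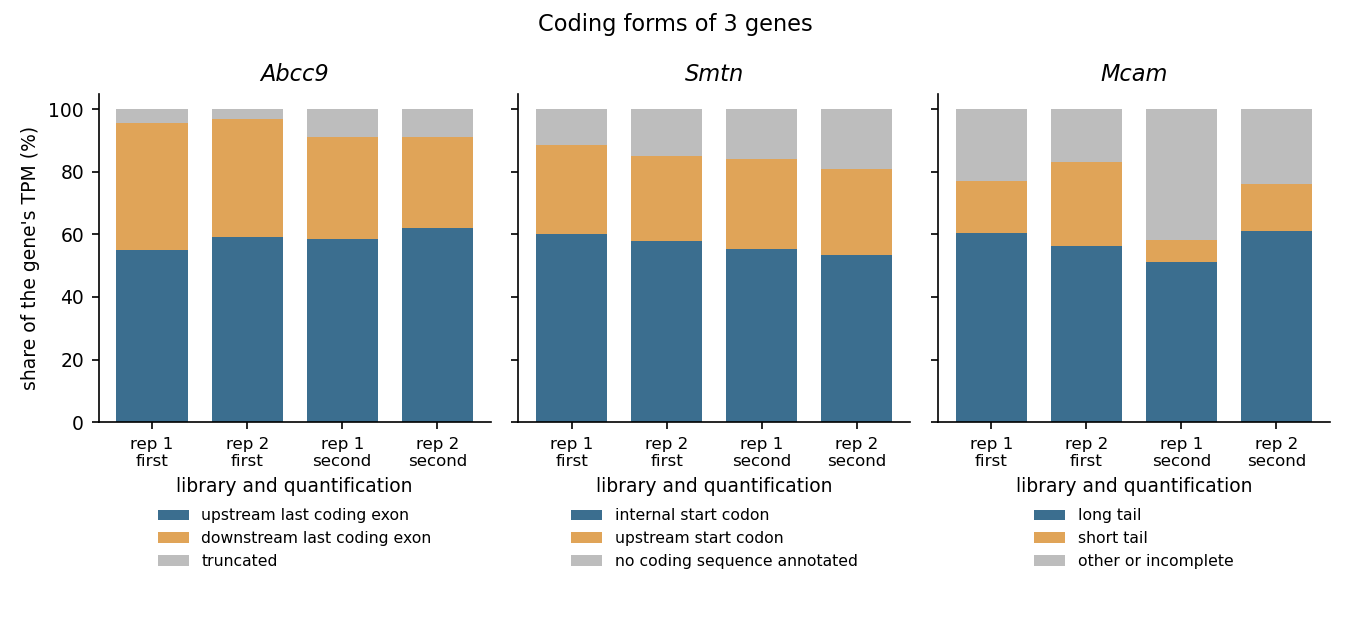
Share of each gene's TPM (%) on its coding forms for Abcc9, Smtn and Mcam, in replicates 1 and 2 and in the first and second quantification, as stacked bars. The upstream end of Abcc9 and the internal start of Smtn took over 50% in each bar, and the long tail of Mcam exceeded its short tail in each bar.

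Tagln, which encodes transgelin (SM22), an actin-binding protein and early marker of smooth muscle, had 27.2 TPM in replicate 1 and 25.7 TPM in replicate 2 (mean 26.5 ± 1.00; ENSMUSG00000032085.5, chromosome 9, 45929619 to 45936058, minus strand). Its value depended on the quantification: 10.5 TPM in replicate 1 and 10.6 TPM in replicate 2 were on Tagln-202, an incomplete coding transcript of 369 bases, to which the second quantification gave none. The complete Tagln-201 had 16.4 and 14.8 TPM in the first quantification, against 21.3 and 19.4 TPM in the second, in the order replicate 1 and replicate 2. The gene stood above Mcam in the first quantification, while the second gave them 20.6 ± 1.27 and 20.8 ± 5.65 TPM. Tagln shares 108 bases with Pcsk7 on the opposite strand, at 6.99 TPM in replicate 1 and 4.88 TPM in replicate 2, and overlaps the antisense gene Gm48529, at 0.41 and 0.76 TPM. Whether counting used the strand is not given in the sources used here, so reads from the overlaps cannot be assigned to a strand with certainty.

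Cnn1, basic calponin, which binds actin and slows myosin in differentiated smooth muscle, had 3.85 TPM in replicate 1 and 2.64 TPM in replicate 2 (mean 3.25 ± 0.856; ENSMUSG00000001349.5, chromosome 9, 22099216 to 22109630, plus strand). The counts behind it were closer, at 124 and 113, with the gap in TPM on incomplete coding transcripts of 2.61 TPM in replicate 1 and 1.33 TPM in replicate 2. Its complete coding transcripts had 1.24 and 1.30 TPM. Lmod1, the smooth muscle leiomodin, which starts actin filaments, was the lowest gene at 1.44 TPM in replicate 1 and 1.05 TPM in replicate 2, from 174 and 123 counts (mean 1.25 ± 0.276; ENSMUSG00000048096.7, chromosome 1, 135324807 to 135368065, plus strand). It has a single annotated transcript of 3948 bases and lay above 1.88% of the detected genes.

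Across the 10 genes, 42 transcripts are annotated, and the leading transcript was the same in both libraries for 10 of 10 genes in the first quantification and for 9 of 10 in the second, Abcc9 being the exception. Down the order of mean TPM in the first quantification, Mcam and Pdgfrb were the only neighbours whose TPM ranges overlapped. The order of 2 neighbouring pairs, Tagln with Mcam and Cspg4 with Higd1b, turned in the second quantification.

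The genes were next set beside their relatives, because several of these families have a member known from striated muscle or from other cells. In 4 of 9 families the gene followed here led in each library and quantification. These were Rgs5 with 71.8 ± 2.82% of the TPM of 5 small RGS genes, Abcc9, Smtn with 88.2% in each library of the smoothelin genes, and Pdgfrb. Of the other small RGS genes, Rgs2 had 19.8 TPM in replicate 1 and 29.4 TPM in replicate 2. The others were Rgs3, at 12.9 and 9.65 TPM, Rgs4, at 5.97 and 4.82 TPM, and Rgs16, at 0.85 and 0.95 TPM, all under Rgs5. Beside Smtn, Smtnl2 had 7.24 TPM in replicate 1 and 7.02 TPM in replicate 2, and Smtnl1 0.04 TPM in each.

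In the other 5 families another gene led. Lmod1 made 0.446 ± 0.132% of the leiomodin TPM, beside Lmod2, the cardiac leiomodin, at 243 TPM in replicate 1 and 274 TPM in replicate 2, and Lmod3, of striated muscle, at 22.6 and 23.3 TPM. Cnn1 made 10.4 ± 1.67% of the calponin TPM, under Cnn3, at 16.99 TPM in replicate 1 and 15.2 TPM in replicate 2, and Cnn2, at 12.4 and 10.8 TPM, which are calponins of many cell types. Higd1b made 6.14 ± 0.604% of its family, beside the widely expressed Higd1a, at 85.2 TPM in replicate 1 and 75.4 TPM in replicate 2, with Higd1c at 0 in each. Mcam made 15.3 ± 1.74% of the TPM of 3 related adhesion genes, led by the laminin receptor Bcam, at 87.8 TPM in replicate 1 and 83.8 TPM in replicate 2, with Alcam at 1.26 and 1.23 TPM. Tagln came close to Tagln2, the transgelin of many cell types, with 47.98 ± 2.32% of the TPM. Tagln2 had 31.3 TPM in replicate 1 and 25.9 TPM in replicate 2, in replicate 2 close to the 25.7 TPM of Tagln, and Tagln3 of neurons had 0.14 and 0.23 TPM. In the second quantification, without Tagln-202, the share of Tagln was 36.8 ± 1.38%.

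**Figure D3:**
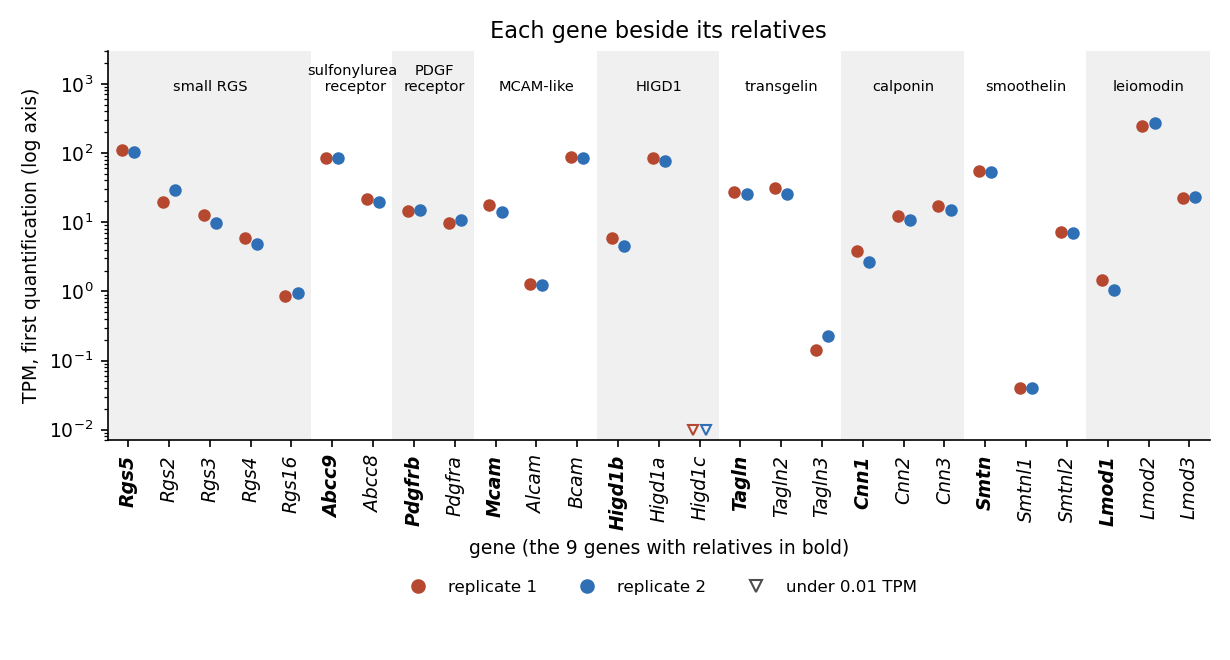
TPM of the genes (bold) and their relatives in replicates 1 and 2 on a log axis, by family. Rgs5, Abcc9, Pdgfrb and Smtn stood above their relatives, and Lmod1 stood at 1.44 and 1.05 TPM under Lmod2 at 243 and 274 TPM.

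Companion genes of mural cells and smooth muscle had medians close to or below the 15.2 TPM of the 10 genes. Of 14 further contractile genes 12 were detected, and all 14 had a median of 15.3 TPM. The highest was the intermediate filament gene Des, at 520 TPM in replicate 1 and 485 TPM in replicate 2, which cardiomyocytes also express. The lowest was Kcnmb1, the beta subunit of the smooth muscle BK potassium channel, at 0.40 and 0.35 TPM. All 14 further mural cell genes were detected, with a median of 7.69 TPM, down to the nucleotide sugar receptor P2ry14 at 2.02 TPM in replicate 1 and 2.08 TPM in replicate 2. Of 8 regulators of smooth muscle genes 7 were detected, and all 8 had a median of 6.53 TPM. They were led by the transcription factor Srf, at 33.9 TPM in replicate 1 and 34.1 TPM in replicate 2, which acts in cardiomyocytes too, and Foxc2 was lowest at 0.92 and 0.88 TPM. In RefSeq promoter windows of GRCm38.p6, from 250 bases before to 50 after each start, the CArG box that Srf binds was found, on either strand, in 0 of the windows of 7 matched genes. The box was counted only in its strict form, CC, a run of A or T bases, and GG, so sites with a mismatch were left out. The same motif was found in 1.63% of 32851 windows of that length. At that share, 0 among so few windows cannot tell these genes from others. Tagln, Higd1b and Pdgfrb had no window in that table.

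Markers of other cells put these levels in scale. The 10 cardiomyocyte markers, which include Myh6 and Ryr2 as the highest and lowest, had a median of 3525 TPM, the 10 endothelial markers 28.2 TPM and the 10 fibroblast markers 36.7 TPM. Glial precursors also express Cspg4, and the glial precursor gene Olig2 was at 0 counts in each, which allows up to 0.0772 CPM in replicate 1 and 0.0786 CPM in replicate 2. No skeletal muscle marker of 6 was detected in both libraries, and Myh4, Myod1 and Myog were at 0 counts. Which cells the RNA of each gene came from was not tested.

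**Figure D4:**
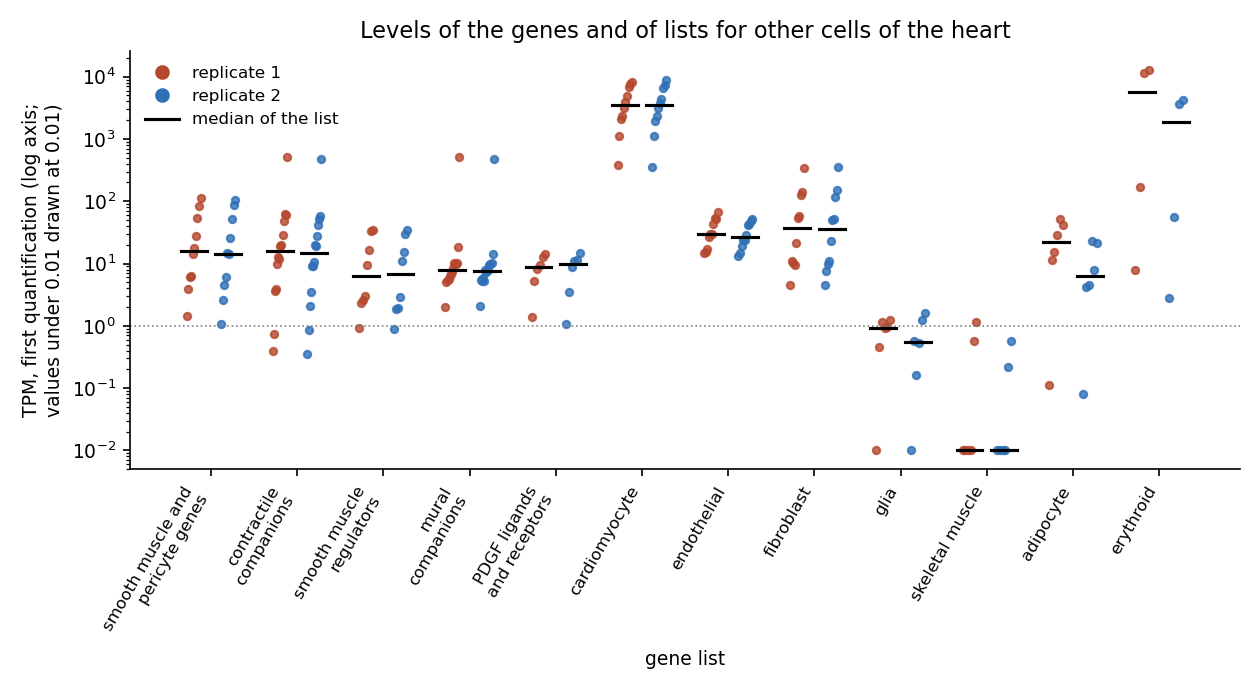
TPM of each gene in the 12 lists on a log axis in replicates 1 and 2, with the median of each list as a bar and a dotted line at 1 TPM. The smooth muscle and pericyte genes lay far below cardiomyocyte markers, and the erythroid and adipocyte lists stood apart between the animals.

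The libraries were then compared gene by gene, to see how far the 10 genes varied between the animals beyond counting noise. An exact binomial test on rounded counts against TMM effective library sizes, with Benjamini-Hochberg adjustment over 13745 genes, compares the reads of 2 libraries and has no replicate check. None of the 10 genes passed an adjusted p of 0.05 with an at least 2-fold ratio, where 1.53% of all tested genes did, 0.982% higher and 0.546% lower in replicate 1. Without the fold threshold 3 of 10 passed, where 21.9% of all tested genes did. Rgs5 was higher in replicate 1 by a log2 ratio of 0.06 (interval 0.02 to 0.09, adjusted p = 0.00780), which turned to -0.18 with spike-in counts as the scale. Mcam was higher by 0.20 (0.08 to 0.32, adjusted p = 0.00545), which turned to -0.039 on the spike-in scale. Abcc9 was lower in replicate 1, with a log2 ratio of -0.09 (-0.12 to -0.06, adjusted p = 2.24e-08).

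The other 7 genes did not pass on the TMM scale. Lmod1 had the largest ratio of the 10, at 0.40 (0.06 to 0.74), with an adjusted p of 0.0804 in that exact test. Higd1b had 0.25 (-0.18 to 0.69, adjusted p = 0.466, exact). Pdgfrb had -0.10 (-0.18 to -0.01, adjusted p = 0.0866, exact), and on the spike-in scale it passed at -0.34 (adjusted p = 7.45e-15, exact). On that scale 6 of 10 passed, all lower in replicate 1, namely Rgs5, Cspg4, Pdgfrb, Abcc9, Tagln and Smtn. Of all 13745 tested genes 7952 passed on that scale, 7586 of them lower in replicate 1, a share like that of the 10 genes. Ratios were positive for 8 of 10 genes, with a median of 0.06, and for 2 of 10 on the spike-in scale, where all tested genes had a median of -0.24. The median size of the ratio, without its sign, was 0.08 for the 10 genes and 0.13 for all tested genes. With the common dispersion that edgeR estimated from both libraries as 1 group, a biological coefficient of variation of 0.113, its exact test passed 0 of the 10 genes, where 1.13% of all tested genes passed. No gene of the 10 had an unadjusted p under 0.05 in that edgeR exact test, where 4.24% of all tested genes did. The lowest was 0.182, for Lmod1, and each adjusted p was 1.

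**Figure D5:**
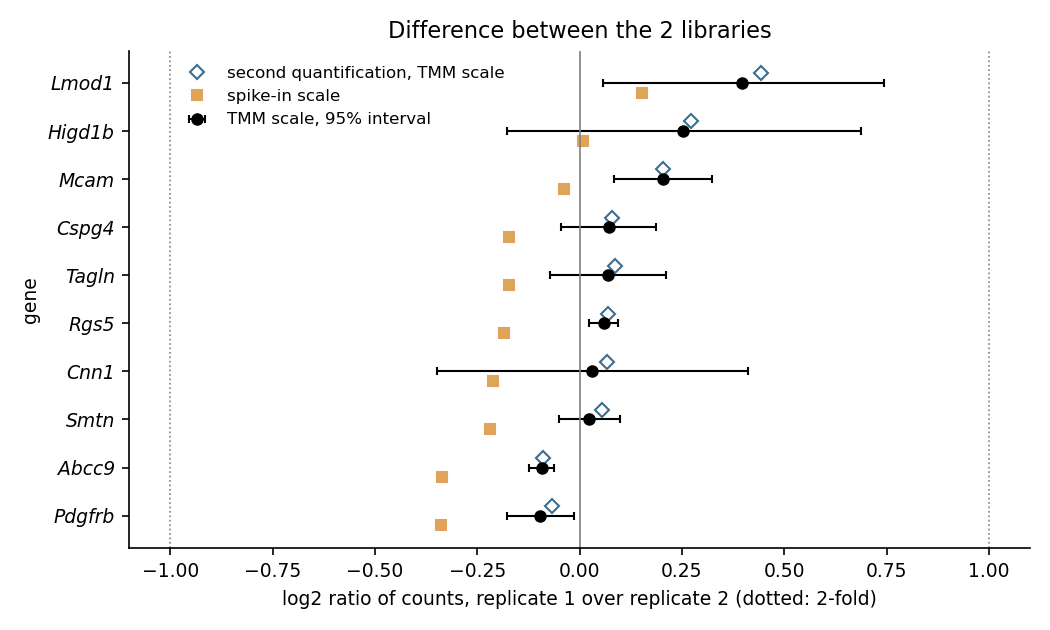
Log2 ratio of counts, replicate 1 over replicate 2, for each gene, with exact 95% counting intervals on the TMM scale (black), the second quantification (open) and the spike-in scale (orange). All ratios lay within 2-fold (dotted lines), and on the spike-in scale 2 of 10 stayed above 0.

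The lists of companions were put through the same binomial test. Of the contractile companions 5 of 14 passed at any fold, all higher in replicate 1 on the TMM scale: Acta2, Myl9, Mylk, Des and Itga8, of which Itga8 alone had a positive ratio on the spike-in scale. Of the mural companions, which also include Des, Des, Steap4 and Ednra were higher in replicate 1 on the TMM scale and Gucy1a1 was lower, with Des turned negative on the spike-in scale. Of the regulators Mrtfb alone passed, lower in replicate 1, and of the PDGF system Pdgfd was higher and Pdgfra lower. These genes were named after their values were seen, and none of them reached 2-fold. The share of all tested genes that passed was 11.8% higher and 10% lower in replicate 1. In edgeR's exact test with the common dispersion, no gene of these companion, regulator and PDGF lists passed.

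Markers of other cell types were compared in the same way. Those of fibroblasts summed to 772 TPM in replicate 1 and 777 TPM in replicate 2. Of these 10, 2 passed higher and 4 lower in replicate 1 on the TMM scale, and none had a positive ratio on the spike-in scale. Markers of endothelial cells, which also express Mcam, summed to 349 TPM in replicate 1 and 309 TPM in replicate 2, and 5 of 10 passed, all higher in replicate 1 on the TMM scale, while 1 of the 10 ratios was positive on the spike-in scale. Markers of cardiomyocytes, which also express Abcc9, summed to 40563 and 39855 TPM in that order, with 4 of 10 higher and 6 of 10 lower in replicate 1 on the TMM scale and 10 of 10 lower on the spike-in scale. Erythroid markers summed to 24343 TPM in replicate 1 and 7896 TPM in replicate 2, and adipocyte markers to 149 and 61.0 TPM. In edgeR's exact test no endothelial, cardiomyocyte or fibroblast marker passed, against 4 erythroid and 4 adipocyte markers. In the erythroid list 4 of 4 and in the adipocyte list 3 of 5 tested genes were called at 2-fold, all higher in replicate 1. Their part in the ratios of the 10 genes was not tested.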

How the data were processed

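Levels and counts of 10 genes were taken from 2 heart libraries, replicate 1 and replicate 2 of the labels, which the labels call biological replicates with separate biosamples but 1 donor identifier; they were treated as 2 animals, and the spread may be partly technical. The 10 genes, the gene lists and the families were chosen with earlier results of these data known. Reads were quantified by the authors against mm10 with annotation M21, per the deposited description files; which programs did so is not given in the sources used here. Their first quantification holds deposited expected counts per gene and transcript, which are estimated and not normalized, the authors' TPM, a posterior mean TPM, and FPKM, per the file headers. Its posterior standard deviation of each count is a score of the authors' estimate, per the file headers. The second holds deposited estimated counts and TPM per transcript, which were summed here per gene. The genome is that of C57BL/6J, so reads of the CAST allele carry mismatches, and their loss was not measured.

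Symbols were matched through GENCODE M21, with Mkl1 and Mkl2 listed as Mrtfa and Mrtfb. Detection was set at 1 TPM or more in both libraries. Expected counts were rounded and compared with an exact two-sided binomial test against TMM effective library sizes (edgeR 4.0.16) for genes whose counts summed to 50 or more, with Benjamini-Hochberg adjustment. Ratios have replicate 1 on top, after adding 0.5 to either count. With 1 library on each side edgeR's quasi-likelihood test leaves no residual degrees of freedom. The test was checked on simulated counts. At this depth 3 counts, the limit of a count of 0, are 0.0772 and 0.0786 CPM. Named were the 10 genes, their relatives, and the highest or lowest genes of some lists, with others marked in the text. No endothelial, erythroid or adipocyte gene is named singly, also where it was called at 2-fold. Alternatives were the second quantification, posterior mean TPM, nuclear protein-coding TPM, other size factors, spike-in counts as the scale, other count and TPM thresholds, edgeR's exact test with a common dispersion, and leaving out a replicate. Python 3.11.15, pandas 2.3.3, scipy 1.17.1 and statsmodels 0.14.6 were used. Single values of some glial markers are not reported here.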

Additional observations from a re-analysis of the deposited data

How the results depend on the processing

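No paired analysis was possible because the libraries form 1 group. The median level of the 10 genes, 15.2 TPM, was 18.4 TPM in the second quantification and 38.7 TPM when TPM was rescaled to nuclear protein-coding genes, a scale on which 4 of 10 genes rather than 8 were higher in replicate 1; without a replicate it was 14.4 to 16.0 TPM. All 10 genes stayed detected without either replicate, and at a TPM of at least 5, 7 did. The 2-fold count stayed at 0 in all alternatives run. The count at any fold, 3, was 6 with spike-ins as the scale, all lower in replicate 1, 0 with edgeR's exact test, and 3 or 4 otherwise. Spike-ins shifted the median log2 ratio of all genes to -0.24, with 366 genes higher and 7586 lower in replicate 1, against 1625 and 1381 with TMM, and at 2-fold 83 higher and 167 lower against 135 and 75. On that scale the ratios of Rgs5 (-0.18), Cspg4 (-0.17), Mcam (-0.039), Tagln (-0.17), Cnn1 (-0.21) and Smtn (-0.22) reversed, and the median of the 10 genes was -0.18. Of all genes, 3006 passed at any fold, against 7952 with spike-ins and 155 with edgeR's exact test. At 2-fold 210 passed, against 334 with a summed count of at least 10 and 142 with edgeR's exact test. The leading transcript's share moved by over 1 SD in 8 of 10 genes in the second quantification, and the cause was not tested. Counts near 100 (Higd1b, Cnn1, Lmod1) limit what could be seen between the animals.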

Other observations

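The overlap of annotated genes touched 5 of the 10 genes, through 7 genes on opposite strands. Apart from the partners of Tagln, all of these overlapping genes stood under 0.5 TPM: Gm10687, which shares 17 bases with Mcam, had 0.38 TPM in replicate 1 and 0.20 TPM in replicate 2, and 5330439B14Rik, within Abcc9, had 0 and 0.03 TPM. Of the remaining 3, Gm11946, within Smtn, had 0.01 TPM in replicate 1 and 0.05 TPM in replicate 2, and Gm11947 and Gm22796 were at 0 counts in each. A CArG box was found in 1 of 15 promoter windows of the contractile companions, at Myl9, and in 1 of 9 of the regulators, at Srf. It was found in 0 of 15 windows of the mural companions and in 535 of 32851 windows of all genes. A match describes letters in a window and not a bound site.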
